A study of Mus musculus with 8 samples.

Results

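Csprs and its relatives are copies of a mouse repeat family on chromosome 1 that is built in part from Sp100 sequence, and Sp100, Sp110, Sp140, Pml and Daxx encode proteins of the nuclear bodies formed by PML. In cardiac mesenchymal stromal cells (cMSCs), the 4 Csprs family probes on the array were 4.84- to 5.58-fold higher in aged than in young pools, with every aged pool above every young pool. With normexp background correction and its offset of 50, the folds of Csprs and Gm15433 were 5.14 and 5.11. Those of Gm7609 and Gm16026 were 2.25 and 2.29. Of the 11 tested nuclear body probes 5 were higher in all aged pools, by 1.18- to 1.96-fold (1 each of Sp100, Sp110 and Pml, and 2 of Sp140). The other 6, among them all 3 Daxx probes, overlapped between the groups, with folds of 0.84 to 1.34. Over all tested probes of the array, 6.11% had every aged pool above every young pool. The genes were chosen by name, as every array probe whose gene name was Csprs, Gm7609, Gm15433, Gm16026, LOC100039029, Sp100, Sp110, Sp140, Pml or Daxx. Of the 10 names 9 had a probe, which gave 18 of the 56605 probes on the array. The names were picked with measured values of these pools in view, so the differences of these genes between aged and young cMSCs are a description and carry no p value.

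The study asked how ageing alters the expression profile of cMSCs, progenitor-like stromal cells of the heart, which were sorted as Sca-1+ PDGFRα+ cells lacking CD31 and CD45. RNA from 4 pools of aged (20 months) and 4 pools of young (5 months) mice was hybridized to 8 Agilent arrays with 1 colour. All mice were male and labelled C57Bl/6, and 3 mice were pooled per sample, although the letters and digits that name aged replicate 4 leave room for fewer. The methods also name CX3CR1gfp/+ CD45.1 reporter mice, and since no source used here gives the line behind each pool, line and age cannot be told apart. The aged pools are called replicates 1 to 4 and the young pools replicates 2 to 5, as numbered in the labels.

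Nuclear bodies are small assemblies in the cell nucleus that PML organizes once it is modified by SUMO, a small protein tag. Sp100 is a constant partner of PML there, Sp110 and Sp140 are its close relatives that share the DNA-binding SAND domain, and Daxx deposits histone H3.3 together with Atrx. Several of these genes are known interferon targets. Csprs stands for component of Sp100-rs, a repeated mouse gene in which the beginning of Sp100 was joined to a Csprs sequence.

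The probes of the repeat family were compared first, because 1 transcript can bind several of them. They are 60 bases long and are printed 5′ to 3′ as the array files give them, with capitals for the run that the Csprs and Gm15433 probes share.
Csprs: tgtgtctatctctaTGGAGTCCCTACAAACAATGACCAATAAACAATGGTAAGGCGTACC
Gm15433: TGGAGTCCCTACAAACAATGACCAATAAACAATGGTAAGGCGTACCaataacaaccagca
Gm7609: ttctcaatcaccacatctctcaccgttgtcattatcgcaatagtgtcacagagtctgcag
Gm16026: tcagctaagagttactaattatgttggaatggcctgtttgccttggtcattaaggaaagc
The Csprs and Gm15433 probes shared 46 of 60 bases on the same strand and are 2 readings of nearly the same target. The accession lists of both probes in the array files also named Gm7609 transcripts, so neither can be assigned to 1 copy. The Gm7609 and Gm16026 probes shared no run of 16 or more bases with any other probe on the array.

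The array files place the Csprs probe at chr8_random:111572-111631 and the Gm16026 probe at chr8_random:17668-17727, both on the minus strand. They place Gm15433 at chr1:84962680-84962739 and Gm7609 at chr1:85209309-85209368, on the plus strand. The file headers name the build mm9, but the Gm15433 and Gm7609 positions lie within the GRCm38.p6 spans of these genes in RefSeq, whereas none of the positions of the Sp100, Sp110 and Sp140 probes do. Of 2632 chromosome 1 probes whose gene has a single RefSeq entry, 13.0% fell inside their GRCm38.p6 span. The positions of this family may therefore come from different builds, and no distance was taken between its probes and those of Sp100, Sp110 or Sp140.

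Csprs had log2 values of 3.20, 3.35, 3.03 and 3.48 in aged replicates 1 to 4, against 0.91, 0.90, 1.0 and 0.57 in young replicates 2 to 5. On this scale 0 is the 75th percentile of the signals of an array, and values are read between pools for 1 probe, not between probes. All aged pools lay well above all young pools, and the lowest aged value exceeded the highest young value by 2.03. The mean was 3.27 ± 0.19 in aged and 0.85 ± 0.19 in young cMSCs (SD, n = 4 each), a log2 difference of 2.42 (SE 0.13) or 5.35-fold. The 8 arrays sat on 1 slide in 2 rows with 2 aged and 2 young pools each, and the difference was 2.60 in the first row and 2.24 in the second.

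Gm15433, whose probe overlaps that of Csprs, followed the same order of pools. Its values were 2.41, 2.60, 2.29 and 2.71 in aged replicates 1 to 4 and 0.06, 0.03, 0.12 and -0.13 in young replicates 2 to 5. The log2 difference was 2.48 (SE 0.11), or 5.58-fold. In both probes aged replicate 4 was the highest and young replicate 5 the lowest.

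Gm7609 had values of -2.11, -2.08, -2.09 and -1.57 in aged replicates 1 to 4 and -4.52, -4.12, -4.30 and -4.54 in young replicates 2 to 5. Aged replicate 4 again stood highest, and the young values lay just above the dimmest signals that the scanner software called well above background, which were -5.87 to -4.95 on the young arrays. The log2 difference was 2.41 (SE 0.15). Normexp background correction with an offset of 50, in place of the processed signal, gave 1.17, a change of 2.25-fold rather than 5.31-fold. The young processed signals of this probe (20.3 to 40.8) lay below that offset. The size of this change thus depends on the processing, and the parts of background removal and offset were not tested apart.

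Gm16026 behaved like Gm7609, with values of -2.01, -1.66, -1.68 and -1.66 in aged replicates 1 to 4 and -3.58, -3.79, -4.65 and -4.10 in young replicates 2 to 5. Its young pools were the most scattered of the family, with an SD of 0.46 against 0.17 in the aged pools. The log2 difference was 2.27 (SE 0.22) and fell to 1.20 with normexp. Csprs and Gm15433 kept differences of 2.36 and 2.35 under the same correction.

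**Figure D1:**
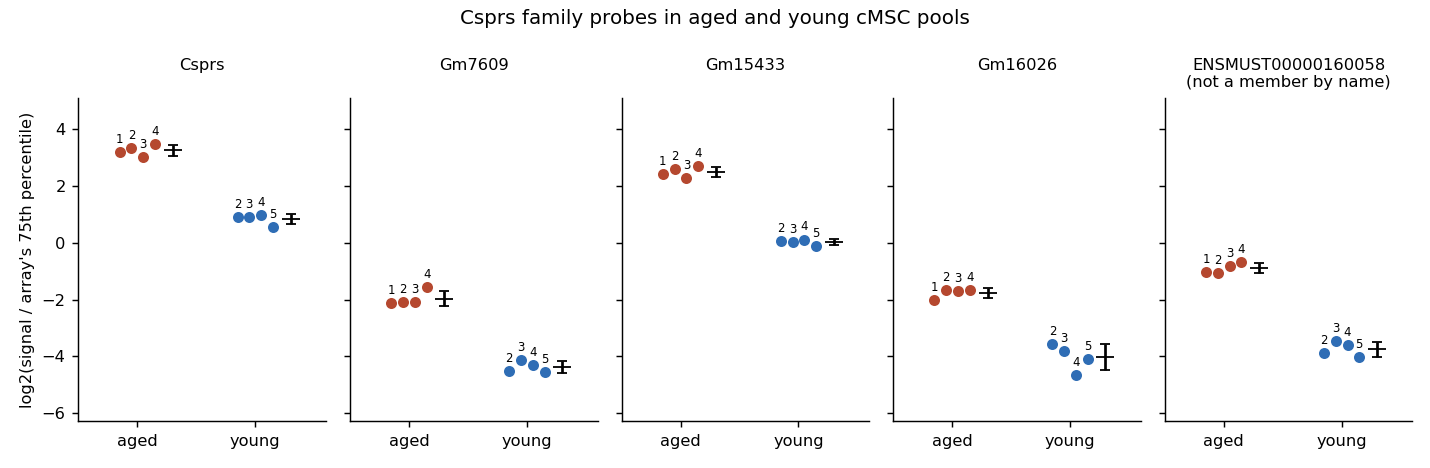
Log2 signal relative to the 75th percentile of each array (vertical axis) for the 4 Csprs family probes and 1 probe assigned through its accessions, in the aged pools (left of each panel) and the young pools (right). Points are pools with their replicate numbers and bars are mean ± SD (n = 4 each); the aged and young points are separate in every panel, and levels are to be read within a panel only.

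LOC100039029 had no probe of that name. One probe named for the transcript ENSMUST00000160058 lists LOC100039029 among its accessions, and it was singled out after its values were seen. The files place it at chr1:85198851-85198910, and its sequence, shown because it gave the largest difference of the family, shared no run of 16 or more bases with the other family probes.
ENSMUST00000160058: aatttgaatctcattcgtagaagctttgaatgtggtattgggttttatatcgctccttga
It had values of -1.02, -1.05, -0.81 and -0.69 in aged replicates 1 to 4 and -3.89, -3.46, -3.59 and -4.04 in young replicates 2 to 5. The groups were separated by 2.42 at their nearest, and the log2 difference was 2.85 (SE 0.15), or 1.79 with normexp. Its accession list also names an entry called LOC671917, so it too may read more than 1 copy.

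Sp100, the constitutive partner of PML from which the repeat family took its beginning, was measured by 2 probes. The one at chr1:87596228-87596287 had values of 1.65, 1.81, 1.73 and 1.87 in aged replicates 1 to 4 and 1.27, 1.48, 1.32 and 1.25 in young replicates 2 to 5. Aged pools were all higher, by 0.17 at their nearest. The log2 difference was 0.43 (SE 0.09), a 1.35-fold change that was 0.39 in the first slide row and 0.48 in the second. The other Sp100 probe, at chr1:87559346-87559405, was well above background on 0 of 4 aged and 2 of 4 young arrays and was not tested.

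The window around the start of Sp100 is nearly the same as that of Gm7609. Both are printed from RefSeq (GRCm38.p6, plus strand, 300 bases, from 250 before to 50 after the start), at chr1:85199361-85199660 for Gm7609 and chr1:85649764-85650063 for the more downstream of the Sp100 starts, with capitals for the longest run they share.
Gm7609: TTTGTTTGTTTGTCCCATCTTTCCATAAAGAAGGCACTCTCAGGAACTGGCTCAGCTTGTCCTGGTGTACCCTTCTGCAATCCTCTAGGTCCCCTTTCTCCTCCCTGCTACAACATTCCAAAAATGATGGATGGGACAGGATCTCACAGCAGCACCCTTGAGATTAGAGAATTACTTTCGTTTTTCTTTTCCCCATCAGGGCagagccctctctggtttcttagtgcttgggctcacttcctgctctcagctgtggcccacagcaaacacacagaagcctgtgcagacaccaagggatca
Sp100: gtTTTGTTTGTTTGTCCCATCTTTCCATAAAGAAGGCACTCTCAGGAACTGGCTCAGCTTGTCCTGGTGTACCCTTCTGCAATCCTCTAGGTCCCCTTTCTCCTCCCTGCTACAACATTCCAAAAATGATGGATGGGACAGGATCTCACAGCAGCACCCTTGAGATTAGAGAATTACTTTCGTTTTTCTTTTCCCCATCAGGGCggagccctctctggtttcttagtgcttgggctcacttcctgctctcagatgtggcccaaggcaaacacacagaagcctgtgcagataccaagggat
The shared run was 202 bases long, and 293 of 298 aligned bases (98.3%) were identical. Among 32851 promoter entries of the table, the entries that held even 50 bases of this run were those of Gm7609 and Sp100. No promoter entry matched Csprs, Gm15433, Gm16026 or LOC100039029 by name. Over all 10 promoter entries of the members (Gm7609, Sp100, Sp110, Sp140, Pml and Daxx), the interferon response motif GAAA, any 2 bases, GAAA had 0 matches on either strand, against 3.44% of all promoters. The STAT motif TTCNNNGAA, which reads the same on both strands, likewise had 0 matches, against 8.30% of all promoters. With 10 entries, among them overlapping starts of Daxx and of Sp100, 0 matches is near these shares. Nothing is read from it, and other forms of the motifs were not counted. In the same pools Gm7609 differed by 5.31-fold (2.25-fold with normexp) and Sp100 by 1.35-fold (1.35-fold with normexp).

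Sp110, linked in mice to resistance against intracellular bacteria, was measured by 4 probes that did not move together. The probe at chr1:87473532-87473591 had values of 3.28, 3.43, 3.27 and 3.44 in aged replicates 1 to 4 and 2.74, 2.82, 2.91 and 2.66 in young replicates 2 to 5. All aged pools were above all young pools, by 0.36 at their nearest. The log2 difference was 0.57 (SE 0.09), or 1.49-fold. The probe at chr1:87492576-87492635 differed in the same direction by 0.43 (SE 0.18), with overlap between the groups because young replicate 3 reached -1.45 while the other young pools lay between -2.16 and -1.97.

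The brightest Sp110 probe, at chr1:87473677-87473736, went the other way, with a log2 difference of -0.25 (SE 0.21). Its sequence is shown because it consists largely of a TG repeat, and the capitals mark the longest run that it shares with another probe, that of Dennd4a.
Sp110: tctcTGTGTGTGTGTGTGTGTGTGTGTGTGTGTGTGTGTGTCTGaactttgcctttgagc
It shared runs of 16 or more bases with 116 other probes on the array, 31 of them with 30 or more bases. Its values were 5.22, 5.29, 5.46 and 5.47 in aged replicates 1 to 4 and 5.40, 5.51, 5.23 and 6.29 in young replicates 2 to 5, so that young replicate 5 stood apart. Of the 74 tested probes that share such a run on the same strand, 69 had their highest value in young replicate 5, and the median excess of that pool over the median of each probe was 0.70. Without young replicate 5 the difference of this Sp110 probe was -0.02. The remaining Sp110 probe, at chr1:87490079-87490138, was near background on all arrays and was not tested.

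Sp140, a relative of Sp110 that restrains type I interferon in mouse macrophages, was measured by 3 probes. The one at chr1:87507329-87507388 had values of -1.21, -0.79, -0.73 and -0.55 in aged replicates 1 to 4 and -1.69, -1.73, -2.10 and -1.65 in young replicates 2 to 5. All aged pools were higher, although aged replicate 1 lay apart from the other aged pools, and the log2 difference was 0.97 (SE 0.16), or 1.96-fold. The probes at chr1:87541244-87541303 and chr1:87541553-87541612 differed by only 0.24 (SE 0.14) and 0.15 (SE 0.10).

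The Sp140 probe with the larger difference lies over a transcript of the opposite strand. Capitals mark the 36 bases that are complementary to the probe of LOC102634459, at chr1:87507353-87507412.
Sp140: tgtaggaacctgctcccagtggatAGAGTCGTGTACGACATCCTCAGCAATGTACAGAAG
The LOC102634459 probe was well above background on 3 of 4 aged and 0 of 4 young arrays, with values of -5.41 to -4.66 in aged and -7.25 to -6.86 in young pools. Its part in the Sp140 reading was not tested. Of the 3 Sp140 probes, the middle one had aged and young pools apart by 0.02, with aged replicate 4 at -0.79 and the other aged pools between -1.32 and -1.30. The third overlapped between the groups.

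Pml, the scaffold of the nuclear bodies, was measured by 2 probes, of which the one at chr9:58066349-58066408 was tested. It had values of 1.38, 1.45, 1.30 and 1.49 in aged replicates 1 to 4 and 1.19, 1.12, 1.19 and 1.09 in young replicates 2 to 5. The aged pools were all higher, but by a small amount, with a log2 difference of 0.26 (SE 0.08), or 1.20-fold. The other Pml probe, at chr9:58093306-58093365, was well above background on 1 of 4 aged and 1 of 4 young arrays.

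Daxx, the histone H3.3 chaperone of the bodies, showed overlapping groups in all 3 probes. The probe at chr17:34052404-34052463 had values of 3.24 to 3.56 in aged and 3.08 to 3.41 in young pools. Its log2 difference was 0.13 (SE 0.11), and those of the probes at chr17:34050229-34050288 and chr17:34052364-34052423 were 0.17 (SE 0.11) and 0.10 (SE 0.09). The probes at chr17:34052364-34052423 and chr17:34052404-34052463 overlapped by 20 bases, so they are not independent readings.

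**Figure D2:**
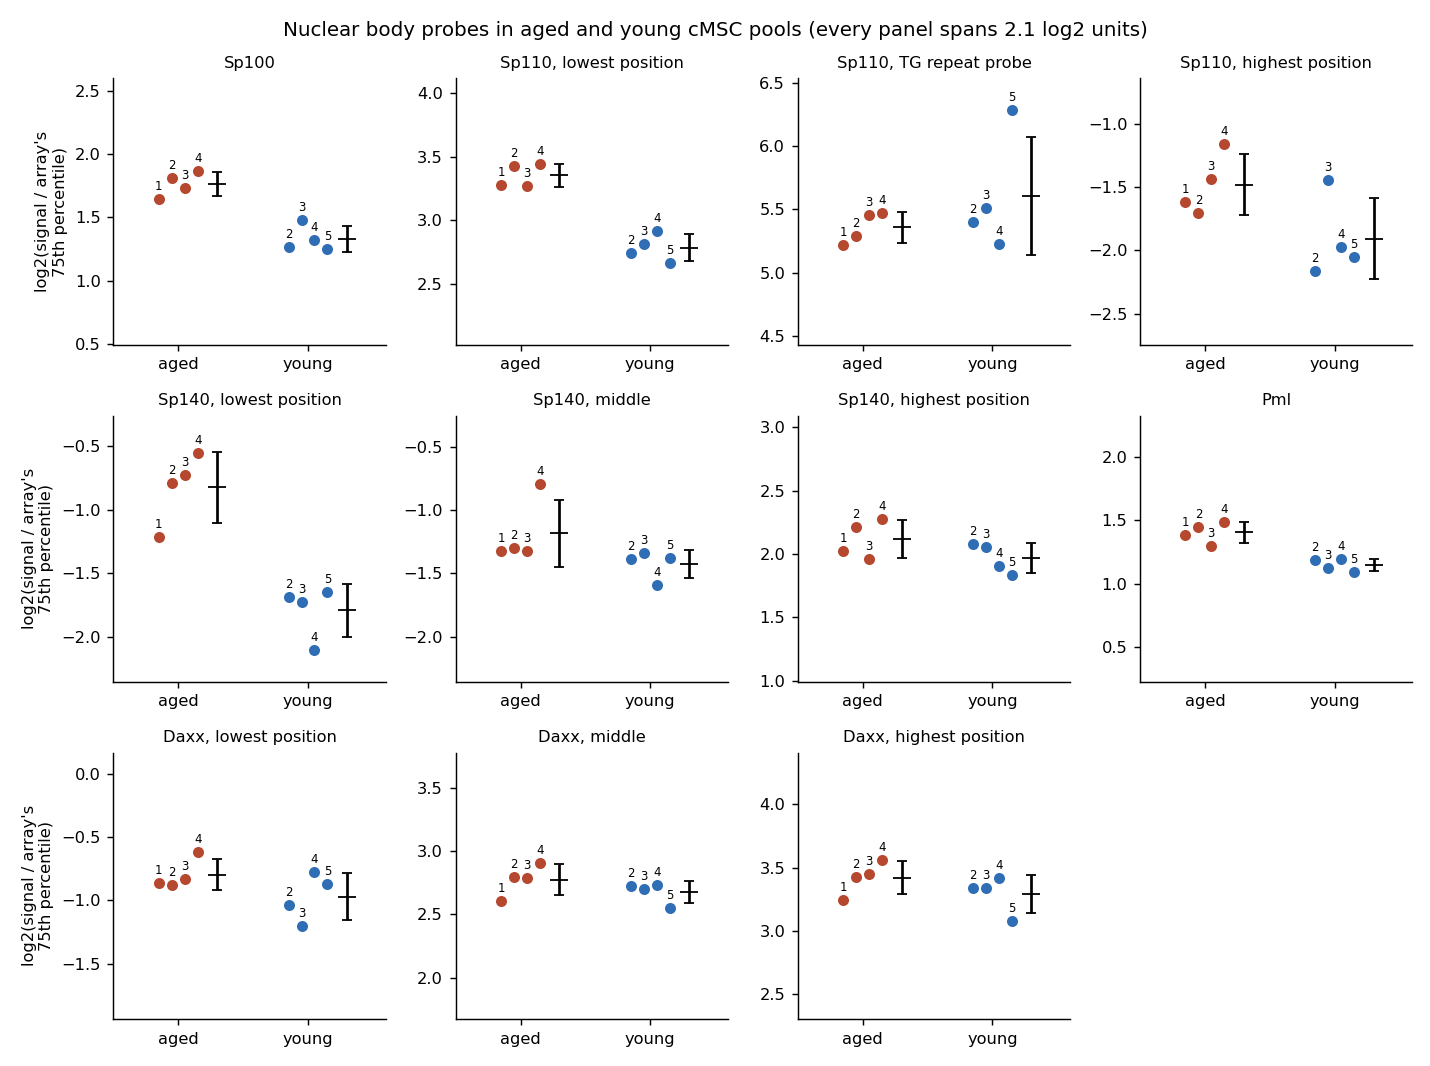
Log2 signal relative to the 75th percentile of each array (vertical axis) for the 11 tested nuclear body probes, with aged pools left and young pools right in each panel. Points are pools with their replicate numbers and bars are mean ± SD (n = 4 each); aged and young pools are separate for Sp100, Pml, 1 Sp110 probe and 2 Sp140 probes, and young replicate 5 stands apart on the TG repeat probe.

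Across the 15 tested probes of these genes, 7 passed an adjusted p under 0.05 as higher in aged cMSCs and 0 as lower. Of all 30809 tested probes 1.93% passed as higher and 0.604% as lower. The 7 were the 4 family probes and 1 probe each of Sp100, Sp110 and Sp140. Every aged pool exceeded every young pool in 9 of the 15 probes, against 6.11% of all tested probes. As the names were chosen on this contrast, these calls are a description. Nothing is read from the shares, or from which calls other settings keep. Without a filter on dim probes, and with the pool code as a block, none of the Sp100, Sp110 and Sp140 probes passed. With scaling to the median only that of Sp140 did. The Sp100 probe no longer passed whichever pool was left out, and the Sp140 probe no longer passed without aged replicate 3 or young replicate 3.

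**Figure D3:**
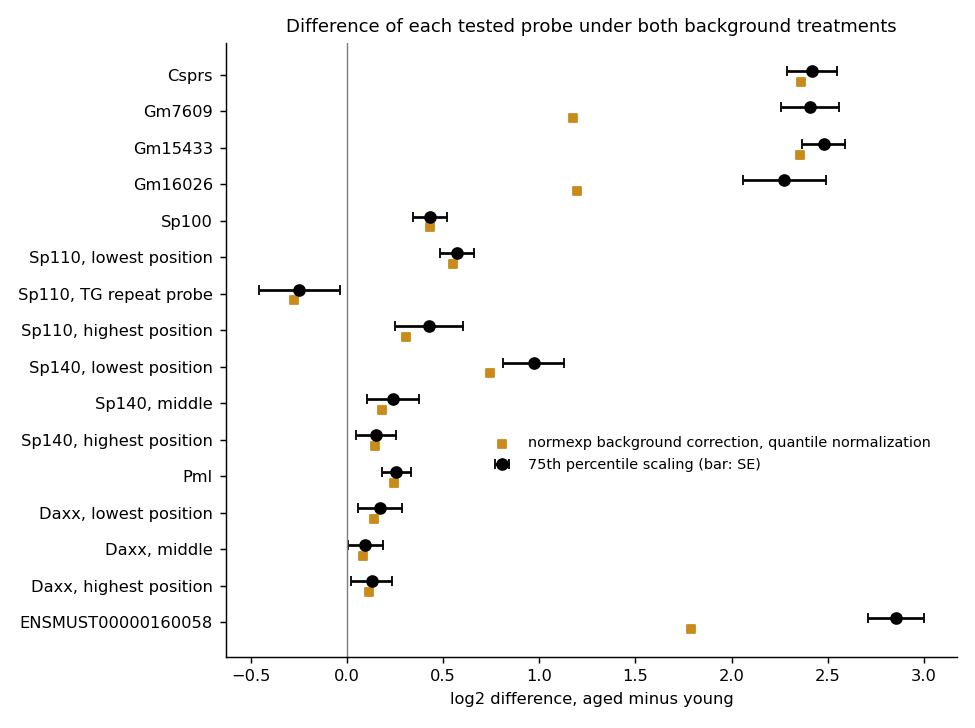
Log2 difference of aged minus young pools (horizontal axis) for each tested probe and the probe assigned through its accessions. Black points with SE bars are values scaled to the 75th percentile and squares are values after normexp background correction and quantile normalization; the dim probes Gm7609 and Gm16026 move to 1.17 and 1.20, whereas Csprs and Gm15433 stay at 2.36 and 2.35.

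The sort was checked with marker genes. The 7 cMSC markers, among them Pdgfra and Ly6a (which encodes Sca-1), were all well above background in at least 1 whole group. None passed an adjusted p under 0.05, but 3 had an unadjusted p under 0.05, Ly6a with a log2 difference of 0.67 (SE 0.15), Thy1 with -0.71 (SE 0.16) and Col1a1 with -0.37 (SE 0.10). The 19 tested leukocyte markers summed, relative to the 75th percentile of each array, to 13.1 to 24.2 in aged and 8.18 to 13.1 in young pools, and 4 of them (S100a9, Ly6g, Cd14 and Cd2) were higher in aged cMSCs, against 1.93% of all probes. S100a9 and Cd2 were well above background on 4 aged but only 3 young arrays, so they were tested only through the aged group. The 5 tested pan-leukocyte markers had a median difference of 0.70, and none of them passed. The 2 probes of Ptprc, which encodes CD45, differed by 0.07 (SE 0.10) and 0.68 (SE 0.89). Cd79a, Laptm5 and Cx3cr1 were not well above background in all pools of either group. The 6 tested cardiomyocyte markers had differences of -0.90 to -0.32, with a median of -0.50, and 5 had an unadjusted p under 0.05. Of these 1, Pln, passed as lower in aged cMSCs (against 0.604% of all probes). Pln was well above background on 2 aged and 4 young arrays, so it was tested only through the young group. The sums of the tested cardiomyocyte markers were 3.76 to 6.22 in aged and 6.23 to 8.19 in young pools. The part of leukocytes and cardiomyocytes in the differences of the Csprs family and the nuclear body genes was not tested, and in bulk RNA a change in the number of cells of a type and in RNA per cell cannot be told apart.

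Interferon signaling genes were compared because several nuclear body genes are interferon targets. In aged cMSCs 6 of 26 listed genes were higher and 0 lower (1.93% and 0.604% of all probes), and the median log2 difference was 0.33, against -0.0034 over all tested probes. The change lay with the targets, of which 5 of 13 passed, with a median difference of 0.75, whereas 0 of 4 receptors passed, with a median of 0.05. Among the 9 kinases and transcription factors 1 passed, the factor Irf7, and the median was 0.21. Without young replicate 2, 4 or 5 the count of genes that passed was 3.

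Mx1, an interferon target gene, had values of -2.01, -1.90, -2.15 and -1.58 in aged replicates 1 to 4 and -3.68, -3.54, -3.36 and -4.09 in young replicates 2 to 5. It rose by 1.76 (SE 0.18, adjusted p = 0.0019 with limma), with no overlap between the groups, or by 0.92 with normexp. Oas1a, an oligoadenylate synthetase that activates RNA decay, rose by 1.64 (SE 0.23, adjusted p = 0.0089 with limma), with 2.44 ± 0.31 in aged and 0.80 ± 0.44 in young pools (SD, n = 4 each). Both calls held with each pool left out in turn, which reuses the same arrays, and were lost with the replicate number as a block.

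Rsad2, which encodes the antiviral protein viperin, rose by 1.28 (SE 0.17, adjusted p = 0.0065 with limma). Its call also held with each pool left out and was lost with the replicate number as a block. Ifi44, an interferon-induced gene, rose by 1.62 (SE 0.27, adjusted p = 0.018 with limma), or by 1.05 with normexp. Its call was lost without young replicate 2, 4 or 5, where the adjusted p with limma reached 0.055. Of 20 alternatives 14 kept the call of Ifi44. The remaining gene that passed among the targets was Usp18, a protease that removes the Isg15 tag. Its log2 difference was 0.96 (SE 0.20), the same to 2 decimals as that of Irf7, which induces interferon genes.

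The partners of PML were compared as a second group. Of 37 listed genes 0 passed as higher or lower in aged cMSCs with limma, 3 had an unadjusted p under 0.05, and the median difference was -0.0081. At shares of 1.93% and 0.604% over all probes, a count of 0 among so few genes is near the background. The 29 tested probes of the 12 genes of the SUMO cycle, which tags PML and its partners, lay between -0.49 and 0.26. The 26 probes of the 11 genes of histone H3.3 and heterochromatin, Atrx and Hira among them, lay between -0.31 and 0.30. The brightest probe of Wrn, a DNA helicase, had a difference of 0.50 (SE 0.33, adjusted p = 0.62 with limma). It shares a run of 25 bases, on the opposite strand, with the TG repeat probe of Sp110, and the other 3 Wrn probes, which share none, had differences of -0.39, -0.18 and 0.02.

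Mdm2, the ubiquitin ligase of p53, had the largest value of the partners, -1.55 (SE 1.33, adjusted p = 0.74 with limma). It rested on a single spot, since young replicate 4 was at 9.69 and the other young pools lay between 3.17 and 3.32, close to the 3.16 to 3.42 of the aged pools. Without young replicate 4 the difference was 0.05.

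The relatives of the Sp proteins by domain stayed near 0. Of 7 tested genes with a SAND domain or of the TIF1 family 0 passed with limma, 0 had an unadjusted p under 0.05, and the differences of their brightest probes lay between -0.04 and 0.12 (over all 16 tested probes, between -0.22 and 0.12). Trim66, of the TIF1 family, had the largest difference, 0.12 (SE 0.13), followed by Gmeb2, a SAND domain protein, with 0.09 (SE 0.15). Aire, the thymic SAND protein, was not well above background in all pools of either group.

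**Figure D4:**
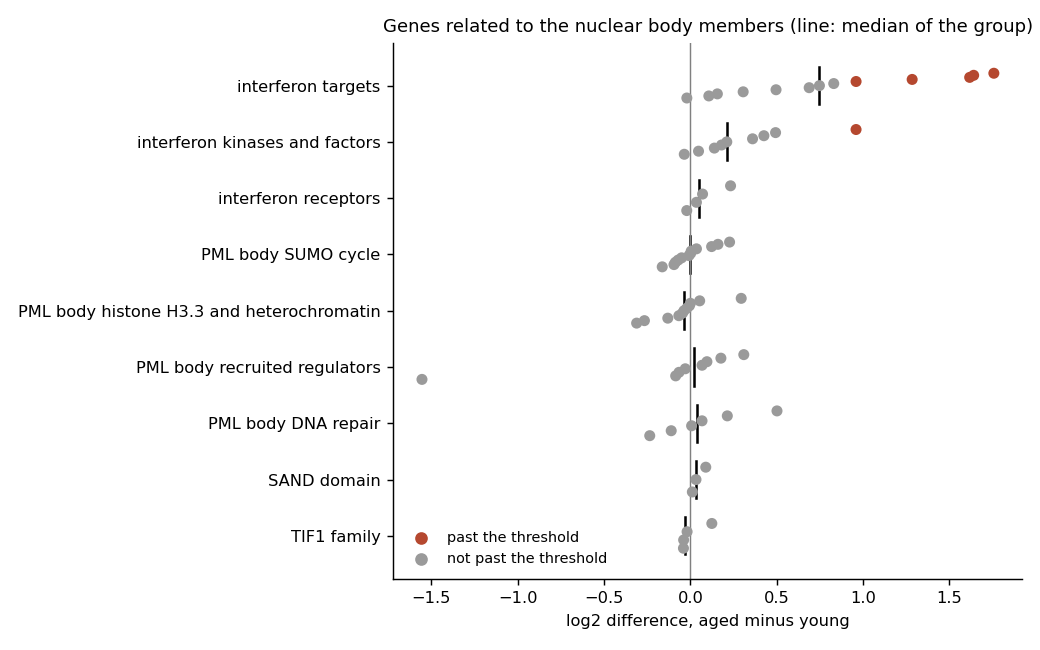
Log2 difference of aged minus young pools (horizontal axis) for each tested gene of the 3 related lists, split by role (rows). Red points passed an adjusted p under 0.05, grey points did not, and lines are medians; interferon targets have a median of 0.75, and the PML body and SAND groups lie around 0.

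The genes next to Sp110, Sp140 and Sp100 were compared with them by the positions of the array files. From 1 Mb below to 1 Mb above their probes (chr1:86473532-88596287), 24 of 46 gene names were tested, of which 2 were higher and 0 lower in aged cMSCs (1.93% and 0.604% of all probes), with a median difference of 0.03. Both were long intergenic RNA probes on the forward strand, at lower positions than Sp110. The one for chr1:87343550-87362900 had values of -0.09, 0.54, 0.33 and 0.37 in aged replicates 1 to 4 and -2.03, -1.82, -2.35 and -2.53 in young replicates 2 to 5. Its log2 difference was 2.47 (SE 0.19, adjusted p = 4.6e-04 with limma), similar in size to those of the Csprs family. The lowest position of any neighbour was chr1:87345173, so most of the 1 Mb below Sp110 held no probe. Only 3 neighbours were tested there.

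The other higher probe, for chr1:87419050-87452625, was not well above background on the 4 young arrays, so it was tested only through the aged group. It was at least 2.73-fold higher in aged cMSCs. Each young array was taken at the lowest signal well above background or the probe's own signal, whichever was higher. That bound holds for the processed signal, and with normexp the log2 difference was 0.48, below it. The adjusted p of 0.012 with limma used measured young signals that were not well above background. Above the Sp100 probe, 20 neighbours were tested and 0 passed in either direction, with differences from -0.60 (Nppc, a natriuretic peptide gene, SE 0.34) to 0.54 (A630001G21Rik, SE 0.15) and a median of 0.0076. These 2 were named after their values were seen. By RefSeq gene positions, a choice made after the mixed builds had been seen, 18 tested neighbours included 2 that were higher, Gm35498 by 1.84 (SE 0.15) and C130026I21Rik by 1.01 (SE 0.13).

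**Figure D5:**
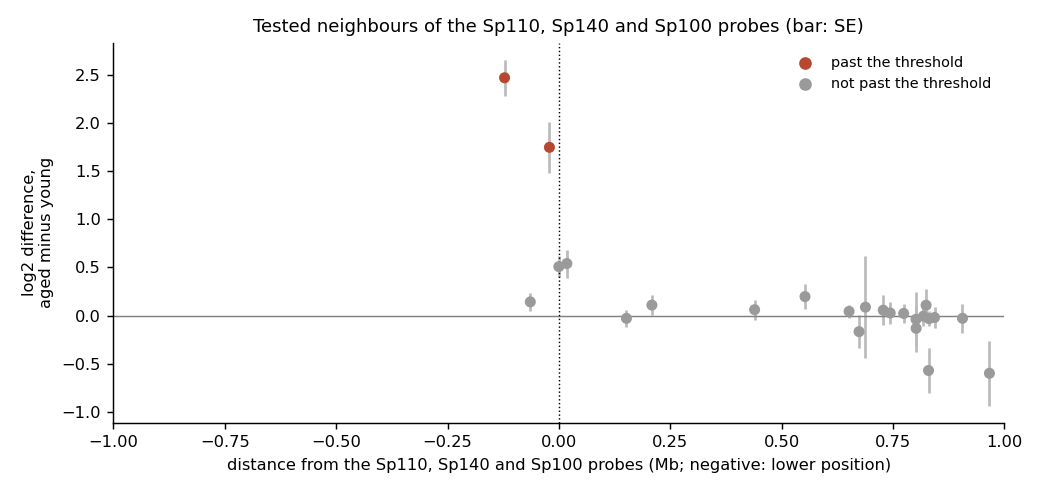
Log2 difference of aged minus young pools (vertical axis, bars are SE) against the distance in Mb from the Sp110, Sp140 and Sp100 probes (horizontal axis) for the 24 tested neighbours. The 2 red points passed an adjusted p under 0.05 and lie at lower positions than Sp110. The red point nearer to Sp110 was tested only through the aged group. The grey points did not pass.

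The probes whose pattern was most like the mean of the 4 family probes over the 8 pools were found by Pearson's r, as a description that the difference between the groups dominates. The first was a long intergenic RNA at chr1:85117750-85129200 on the forward strand (r = 0.998), whose log2 difference was 2.49 (SE 0.13). It was followed by another at chr1:85036677-85038530 on the reverse strand (r = 0.997), with a difference of 1.93 (SE 0.10). As given, both positions lie between those of the Gm15433 and Gm7609 probes, although these may come from different builds. Whether these RNAs read the same repeat was not tested. Then came the kinesin gene Kif21b, the suprabasin gene Sbsn and the tyrosine kinase gene Tnk1, with r of 0.994, 0.993 and 0.992.

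Within the groups another set of genes had the highest correlations with the family. They are the 5 highest of all tested probes outside these genes. Over so few pools, r near 1 can arise from that selection alone. By deviations from the group means, B2m, which encodes the light chain of MHC class I, had the highest r (0.994), followed by Sh2b3 (0.990), Selplg (0.990), the interferon-inducible GTPase gene Iigp1 (0.986) and Phf11b (0.982). Iigp1 had values of 2.35, 2.69, 2.27 and 3.26 in aged replicates 1 to 4 and 1.97, 1.98, 1.61 and 1.31 in young replicates 2 to 5. Its highest aged pool, replicate 4, and its lowest young pool, replicate 5, were also those of Csprs and Gm15433, which its selection on r makes likely. The deviations of these 8 pools share the array, its scaling and its signal level, and with 4 pools a group no p is given.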

How the data were processed

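RNA of sorted cMSCs was measured on 8 Agilent arrays with 1 colour, 4 of aged and 4 of young pools. For each array the authors deposited scanner output, made with Agilent Feature Extraction 10.10.1.1 per the submitters' processing notes, which also name limma. Its processed signal, as deposited, is an intensity with background subtracted and spatial trends removed, not normalized between arrays. A second table deposited by the authors holds log2 values for 33363 probes, with a median of 8.12 in every column. How background was corrected for it is not stated in those sources, and each column correlated best with its own array.

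Control spots and spots marked as outliers by the scanner software were left out, each log2 processed signal was set against the array's own 75th percentile, and testing was limited to probes called well above background throughout 1 or both groups of 4 arrays (30809 of 56605). Spots of a probe were averaged. The 75th percentile was 501 to 778 on aged and 472 to 801 on young arrays, 57.8% to 63.4% of spots were well above background, and no spot was saturated. With 4 arrays a group, each of a separate pool, their number limits the precision. The comparison of aged with young pools used lmFit and eBayes of limma 3.58.1 under R 4.3.3 (6 residual and 2.76 prior degrees of freedom), with p adjusted over all tested probes by the Benjamini-Hochberg method and a threshold of 0.05. The fit was also tested on simulated data, whose means and spreads were taken from the fit of these arrays. A listed gene with several tested probes was represented by the one with the highest mean signal. Shared runs between probes were counted from 16 bases. Promoter sequences and names are those of RefSeq on GRCm38.p6, of which no coordinates were set against those of the array files other than in the check of builds. Tables were made with Python, pandas and numpy.

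The genes and lists were chosen with earlier results of these data known. Named in the text are every member probe, up to 4 genes of each list and of the neighbours past the threshold that changed most (or, with none past it, 2), and the 5 probes most like the Csprs family by each of 2 measures. Other genes named were chosen after their values were seen.

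The first 3 digits of the pool codes match aged replicates 1, 2, 3 and 4 with young replicates 5, 2, 3 and 4, in that order. The deviations of these matched pools from their group means had correlations of 0.15, 0.17, -0.15 and -0.23. With 4 pools a group these values cannot settle whether pools were paired. The labels give no shared litter or day, so neither the numbers nor the codes were used as pairs in the main fit. Alternatives were quantile normalization, scaling to the median, normexp background correction with an offset of 50, other filters on dim probes, 1 probe per gene, the replicate number, pool code or slide row as a block, array weights, limma's trend and robust options, the authors' log2 table, and leaving out each pool.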

Additional observations from a re-analysis of the deposited data

Results flagged for a closer look

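In each group of 4 pools, the highest or lowest value was set against the rest by Dixon's criterion for outliers, over 38 groups, those of the 18 probes of these genes and of the ENSMUST00000160058 probe, of which 7 values stood apart. Chance gives about 1 such value in 20 groups. Aged replicate 4 was the high value at 3 probes. It was at -1.57 for Gm7609, where the other aged pools lay between -2.11 and -2.08, and at -0.793 for the middle Sp140 probe (A_55_P2086810), where the others lay between -1.32 and -1.30. It was also at -4.97 for the dim Pml probe (A_65_P16145), against -5.56 to -5.47 in the other aged pools.

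Young replicate 5 was the low value at 2 probes, at -7.33 for the same dim Pml probe, where the other young pools lay between -5.63 and -5.35, and at 2.55 for the middle Daxx probe (A_66_P111383), where the others lay between 2.70 and 2.73. Aged replicate 1 was low for Gm16026, at -2.01 against -1.68 to -1.66 in the other aged pools. Young replicate 4 was low for the first Sp140 probe (A_55_P2137121), at -2.10 against -1.73 to -1.65 in the other young pools.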

How the results depend on the processing

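Over all probes, 595 were higher and 186 lower in aged cMSCs. Without a filter on dim probes the counts were 221 and 47, with normexp 282 were lower, and with array weights 435 were lower. With the replicate number as a block, which leaves 2 residual degrees of freedom, the counts were 16 and 3, and with the pool code as a block 260 and 64. Leaving out 1 pool gave 314 to 435 higher and 79 to 173 lower. Of the member probes 7 were higher, and 4 without a filter, 2 with the replicate block, 4 with the pool code as a block and 5 to 6 with 1 pool left out, and 0 were lower in each. The 4 left without a filter or with the pool code block were the family probes, as were the 2 with the replicate block. Of the neighbours 2 were higher, and 1 without a filter, with probes well above background on all 8 arrays, with the replicate block and with the pool code block, and 4 with a block for slide row. Leaving out 1 pool gave 2 each time. Of the interferon genes 6 were higher, and 3 without a filter, 0 with the replicate block, 11 with trend and robust options and 3 to 6 with 1 pool left out. Of the PML partners 0 were higher, and 1 with array weights and 1 with trend and robust options. The labels do not say whether the replicate numbers or pool codes pair the samples. With 1 pool left out the difference of Mdm2 ranged from -2.12 to 0.053 (0.053 without young replicate 4) and that of Gmeb2 from -0.011 to 0.16 (-0.0043 without young and -0.011 without aged replicate 3), and both changed sign. Normexp and the authors' log2 table lowered the differences of Gm7609 (1.17 and 1.56), Gm16026 (1.20 and 1.56) and ENSMUST00000160058 (1.79 and 2.22), and the cause was not tested. The young signals of these probes were dim, and the size of their change is uncertain. Its direction was the same under all 20 alternatives, but these reuse the same 8 arrays and are no separate support for it.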
